A study of Mus musculus with 6 samples.

Results

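Isolated lung endothelial cells (iLECs) were profiled here for 10 marker genes of the alveolar epithelium, *Sftpc*, *Sftpb*, *Sftpa1*, *Sftpd*, *Ager*, *Abca3*, *Hopx*, *Nkx2-1*, *Epcam* and *Lamp3*, which were taken by symbol from a table of 24972 genes. All 10 were in the table and passed the filter on low values. The RNA-Seq compared 3 control libraries, from mice with a floxed *Atp6ap2* allele and no Cre, with 3 Atp6ap2iECKO libraries, from mice that carried the same allele and *Cdh5-CreERT2*, a Cre recombinase that tamoxifen activates and that the promoter of the endothelial gene *Cdh5* drives. Every mouse received 100 μg of tamoxifen on each of postnatal days 1 to 3, and lungs were taken on postnatal day 7 (P7). CD31-positive cells were drawn from the digested lung with antibody-coated beads, a selection aimed at endothelial cells (ECs) rather than at epithelium. The labels give the strain as C57BL/6, the methods a mixed CD1 and C57BL/6 background, and neither source says which libraries share a litter.

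The gas exchange surface of the lung is lined by 2 epithelial cell types. Type 2 cells make surfactant, the film of lipid and protein that keeps air spaces from collapsing, and store it in organelles called lamellar bodies. Type 1 cells are thin and flat and share a basement membrane with the capillaries beneath them, so that endothelium and epithelium lie closer together in the alveolus than in most tissues. Epithelial transcripts in a bead-selected EC fraction are therefore a routine check on such preparations. In bulk RNA, a larger number of epithelial cells and more epithelial RNA per cell cannot be told apart.

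Before the values, 3 properties of the libraries matter. Values are normalized counts, whose totals were between 26243878 and 28725799 per library. The most frequent low value of each library was taken as a guide to its depth. It placed the Atp6ap2iECKO libraries at 1.25 to 1.55 times and the controls at 1.00 to 1.04 times the depth of the shallowest. The EC markers were abundant in all 6 libraries, with *Pecam1* (which encodes CD31) between 48730 and 57759 and *Cdh5* between 76599 and 110813. All 6 samples are labelled as carrying a Y chromosome (fl/Y), but *Xist*, the RNA of the inactive X chromosome, was between 37704 and 47487 in 4 libraries. It was 31.7 in control replicate 3 and 19.3 in Atp6ap2iECKO replicate 2. The targeted gene, *Atp6ap2*, ranged from 5681 to 7490 among controls and from 1982 to 4220 among Atp6ap2iECKO libraries.

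The surfactant proteins are the products that define type 2 cells. *Sftpc*, which encodes the hydrophobic surfactant protein C made only by these cells, was found at 15632, 13596 and 39068 normalized counts in the controls, in the order of replicates 1 to 3. In Atp6ap2iECKO replicates 1 to 3 it was at 21587, 17578 and 16435. Control replicate 3 stood 1.81 times above the next library, and the other 5 libraries lay within 1.59-fold of each other. *Sftpb*, for the second hydrophobic protein, which is needed for the surface film, was at 3174, 3142 and 7003 in controls and at 4191, 3318 and 4490 in Atp6ap2iECKO iLECs. *Sftpa1* and *Sftpd* encode collectins, secreted lectins with a collagen-like stalk that bind microbes, and lie 35.8 kb apart on chromosome 14. *Sftpa1* was at 2309, 2335 and 6260 in controls and at 2926, 3065 and 2470 in Atp6ap2iECKO iLECs. *Sftpd* was at 443.0, 555.1 and 1510 in controls and at 582.5, 701.8 and 580.5 in Atp6ap2iECKO iLECs. In each of these 4 genes control replicate 3 was the highest library, between 1.56 and 2.15 times the next, so that the range of the controls enclosed all 3 Atp6ap2iECKO libraries.

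Positions are those of whole genes on GRCm38 (GENCODE M21). *Sftpc* is at chr14:70520949-70524081, *Sftpa1* at chr14:41131782-41136452 and *Sftpd* at chr14:41172214-41185149. *Ager* is at chr17:34597862-34600936, *Abca3* at chr17:24351950-24410201 and *Epcam* at chr17:87635979-87651129. *Sftpb* is at chr6:72304610-72314371, *Hopx* at chr5:77086988-77115121, *Nkx2-1* at chr12:56531958-56536908 and *Lamp3* at chr16:19653378-19706375.

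The promoters of *Sftpb* and *Sftpa1* are shown because both are classical targets of NKX2-1, a member of the list and the transcription factor that sets lung epithelial identity. Windows from 250 bases before to 50 after the start site were given by RefSeq on GRCm38.p6 for 8 of the 10 genes (9 windows, 2 of them for *Hopx*). The *Sftpb* window is chr6:72304360-72304659 and the *Sftpa1* window chr14:41131538-41131837, both on the plus strand and written 5′ to 3′. Capitals mark CTCAAG, a core of the NKX2-1 binding sequence.
Sftpb: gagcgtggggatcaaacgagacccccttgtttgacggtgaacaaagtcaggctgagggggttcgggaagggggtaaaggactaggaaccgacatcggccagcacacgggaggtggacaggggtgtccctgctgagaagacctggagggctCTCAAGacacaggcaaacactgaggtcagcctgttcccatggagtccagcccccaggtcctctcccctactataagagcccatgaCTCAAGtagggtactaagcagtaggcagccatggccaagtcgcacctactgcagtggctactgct
Sftpa1: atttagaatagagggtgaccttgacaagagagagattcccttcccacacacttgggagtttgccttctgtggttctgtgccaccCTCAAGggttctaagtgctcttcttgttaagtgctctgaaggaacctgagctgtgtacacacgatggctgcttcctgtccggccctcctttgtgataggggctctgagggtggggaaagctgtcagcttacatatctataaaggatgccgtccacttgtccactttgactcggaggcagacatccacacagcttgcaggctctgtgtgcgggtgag
On both strands, CTCAAG was found in the windows of 3 of the 8 genes, *Sftpb*, *Sftpa1* and *Hopx*, against 15.9% of all 32851 windows. In *Sftpb* it begins 100 and 15 bases before the start site, and in *Sftpa1* 166 bases before it. TGTTTAC, a core of the FOXA binding sequence, was found for *Lamp3* alone (3.65% of all windows), and the TATA box TATAAA for *Sftpa1* alone (13.6%). The letter matches describe these windows and are not binding data.

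*Abca3*, *Lamp3* and *Nkx2-1* represent the machinery of type 2 cells. *Nkx2-1* was at 236.0, 228.3 and 772.4 in control replicates 1 to 3 and at 323.5, 332.2 and 383.1 in Atp6ap2iECKO replicates 1 to 3. Its value in control replicate 3 was 3.33 times the mean of the other controls, the largest ratio among the 10 genes. *Lamp3*, for a membrane protein of lamellar bodies that mature dendritic cells also make, was at 890.6, 764.8 and 1682 in controls and at 1076, 811.5 and 828.9 in Atp6ap2iECKO iLECs. *Abca3* encodes the transporter that loads lipid into lamellar bodies. It was at 4033, 3838 and 5138 in controls and at 4587, 4187 and 3917 in Atp6ap2iECKO iLECs. *Abca3* was the flattest of the 10 genes, with the highest library only 1.34 times the lowest, whereas the same ratio was 2.87 for *Sftpc* and 3.41 for *Sftpd*. A noncoding gene on the opposite strand, *D330041H03Rik* (mean normalized count 488.9), overlaps 5553 bases of the *Abca3* locus, and the library kit (TruSeq RNA) does not keep strand, so reads in that stretch cannot be told apart. The same limit holds for *Hopx* with *Hopxos* (7772 shared bases) and for *Nkx2-1* with *Gm26973* (1566 shared bases).

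*Ager*, *Hopx* and *Epcam* cover the type 1 side and epithelium in general. *Ager* encodes RAGE, a receptor abundant on the basal face of type 1 cells. It was at 4222, 3683 and 10938 in control replicates 1 to 3 and at 5764, 4356 and 4815 in Atp6ap2iECKO replicates 1 to 3. *Hopx*, for a homeodomain protein of type 1 cells, was at 2374, 1588 and 2846 in controls and at 2735, 1797 and 2214 in Atp6ap2iECKO iLECs. Here control replicate 3 was only 1.04 times above the next library, and the values of the groups were interleaved. *Epcam*, for an adhesion molecule of epithelial cells, was at 112.1, 115.8 and 317.7 in controls and at 111.0, 151.3 and 152.3 in Atp6ap2iECKO iLECs. *Ager* and *Epcam* thus shared with the surfactant genes a single high library, 1.90 and 2.09 times above the next, and *Hopx* did not. All values by library are shown in the plot of the 10 markers.

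**Figure D1:**
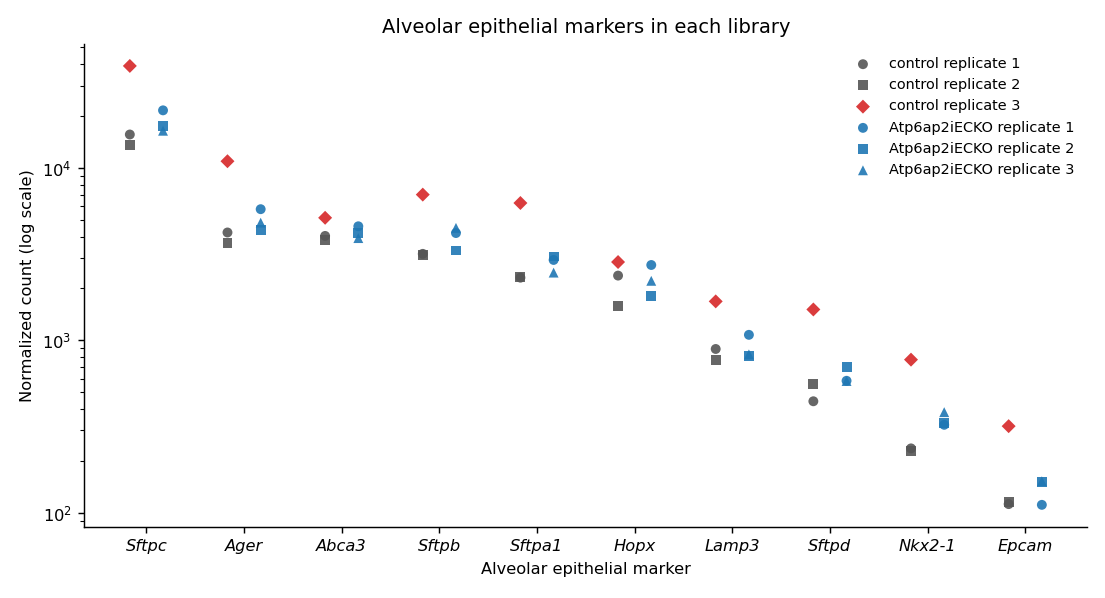
Normalized counts of the 10 alveolar epithelial markers on a log axis, 1 point per library, with controls to the left and Atp6ap2iECKO to the right of each gene, genes ordered by mean. Control replicate 3 (red diamonds) is the highest library for every gene, from 1.04 times the next library for Hopx to 2.15 times for Sftpd.

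Control replicate 3 was the highest library for 10 of the 10 genes, which was the case for 19.7% of the 14456 genes tested. It was at least 1.5 times the next library for 8 of the 10, all but *Abca3* and *Hopx*, against 2.41% of genes tested. The library had been singled out with these values known, so the counts are a description. On the log2 scale, its offset from the other controls had a median of 1.43 over the 10 genes and of 0.00 over all genes tested. The normalized counts have the same median ratio to the geometric mean of the libraries (1.0036) in every library, which holds the second median near 0. For *Nkx2-1* only 0.754% of genes tested had an offset as large, for *Sftpc* 1.60% and for *Ager* 1.45%, but for *Hopx* 8.83% and for *Abca3* 13.7%. The coefficient of variation of the 10 genes had a median of 62.4% among controls (all genes tested, 13.2%) and of 14.5% among Atp6ap2iECKO libraries (all genes tested, 10.2%). Summed over the 10 genes, normalized counts made up 0.116%, 0.107% and 0.287% of control replicates 1 to 3 and 0.161%, 0.134% and 0.138% of Atp6ap2iECKO replicates 1 to 3. Control replicate 3 was low in *Xist*, as was Atp6ap2iECKO replicate 2, whose summed level was close to that of replicate 3 of its genotype. The part of other features of this library in its epithelial level was not tested.

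Ratios between the genes varied less than the genes themselves in some pairs. The ratio of *Sftpc* to *Ager*, a type 2 and a type 1 gene, was 3.70, 3.69 and 3.57 in control replicates 1 to 3 and 3.75, 4.04 and 3.41 in Atp6ap2iECKO replicates 1 to 3. It therefore moved by 1.18-fold across libraries in which each gene alone moved by 2.87-fold and 2.97-fold. The ratio of *Sftpc* to *Sftpb* moved by 1.52-fold. By contrast, the ratio of *Sftpc* to *Abca3* was 3.88 and 3.54 in control replicates 1 and 2, 7.60 in control replicate 3, and between 4.20 and 4.71 in Atp6ap2iECKO libraries.

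Levels between genes were compared per kilobase of exonic length. By this measure *Sftpc* exceeded the EC gene *Pecam1* in every library, at 142%, 137% and 418% of the *Pecam1* level in control replicates 1 to 3 and at 195%, 159% and 154% in Atp6ap2iECKO replicates 1 to 3. *Ager* was at 21.3% to 67.5% of the *Pecam1* level per kilobase, *Sftpb* at 14.6% to 38.2% and *Hopx* at 8.34% to 15.9%. *Abca3* was at 4.47% to 6.73%, *Nkx2-1* at 0.596% to 2.30% and *Epcam* at 0.385% to 1.31%. Per kilobase, only *Sftpc* of the 10 genes was above *Pecam1*, and the regulator and adhesion genes were the lowest. Other EC genes were also above *Pecam1* in every library, *Cdh5* at 163% to 199% and *Cldn5* at 150% to 188% of its level. *Sftpc* was above *Cdh5* only in control replicate 3 and Atp6ap2iECKO replicate 1, and was below *Cldn5* in control replicates 1 and 2.

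The comparison of genotypes asked whether iLECs of Atp6ap2iECKO mice held more or less epithelial RNA than those of controls. None of the 10 genes passed an adjusted *P* value below 0.05 in limma, against 8.25% of all genes tested (3.28% higher and 4.97% lower), and 0 had an unadjusted *P* value below 0.05, against 23.9% of all genes tested. Log2 fold changes ran from -0.23 for *Epcam* to 0.01 for *Hopx*, and 9 of the 10 were negative, against 49.3% of genes tested. *Sftpc* was at 22765 ± 14155 (SD, n = 3) in control and 18533 ± 2705 (SD, n = 3) in Atp6ap2iECKO iLECs. The log2 difference came to -0.14, with a standard error of 0.36, an unadjusted 95% confidence interval from -0.96 to 0.69 and an adjusted *P* value of 0.857 by limma. *Ager* was at 6281 ± 4042 and 4979 ± 717.9 (SD, n = 3 each), with a log2 fold change of -0.16 and an interval from -1.01 to 0.68. For *Abca3*, the least variable gene, the interval was the narrowest, from -0.31 to 0.26 around a log2 fold change of -0.03. The genotypes overlapped for 10 of 10 genes, whereas they did not overlap for 29.8% of all genes tested. For most of these genes, differences of up to about 1.5-fold in either direction lie inside the interval, so the missed threshold does not show equal levels.

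The negative sign of 9 of these fold changes was lost without control replicate 3, and that of *Sftpb*, *Nkx2-1* and *Abca3*, all near 0, also without single Atp6ap2iECKO libraries. *Hopx* was positive with all libraries and without control replicate 3, and was at -0.23 without control replicate 2 and -0.15 without Atp6ap2iECKO replicate 1. Control replicate 3 was the highest library for each of the 10 genes and was singled out with their values known. Leaving it out could therefore only raise each fold change, and the counts without it are a description. Without control replicate 3, the log2 fold change was positive for 10 of 10 genes, against 50.1% of genes tested, and its median moved from -0.15 to 0.30. *Nkx2-1* was then 0.57 higher on the log2 scale in Atp6ap2iECKO iLECs (standard error 0.15, adjusted *P* = 0.106 by limma), *Sftpc* 0.34 (standard error 0.14, adjusted *P* = 0.229) and *Ager* 0.33 (standard error 0.13, adjusted *P* = 0.228). *Abca3* and *Lamp3* had the smallest values, 0.10 and 0.12. None of the 10 passed the threshold without this library, where 1.85% of genes tested did (0.436% higher, 1.42% lower), and 5 had an unadjusted *P* value below 0.05, against 21.3% of genes tested. Every Atp6ap2iECKO library lay above both control replicates 1 and 2 for 6 of the 10, namely *Sftpc*, *Sftpb*, *Sftpa1*, *Sftpd*, *Ager* and *Nkx2-1*, as it did for 20.2% of genes tested. The Atp6ap2iECKO mean of *Sftpc* was 1.27 times that of these 2 controls, and that of *Nkx2-1* 1.49 times. Leaving out Atp6ap2iECKO replicate 2 as well, the other library low in *Xist*, kept all 10 positive, between 0.11 and 0.60.

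**Figure D2:**
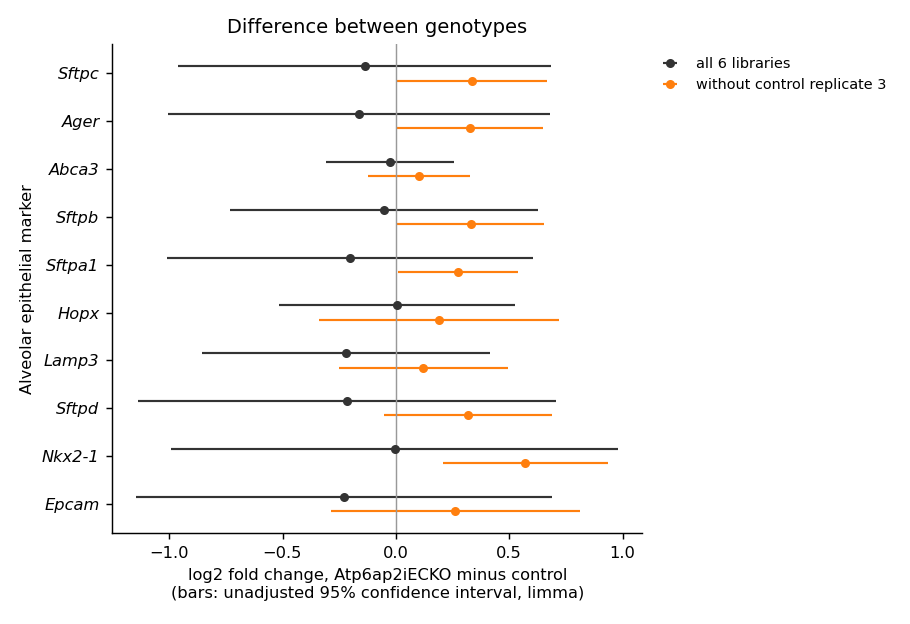
Log2 fold change between Atp6ap2iECKO and control iLECs for each marker (points) with its unadjusted 95% confidence interval from limma (bars), for all 6 libraries (black) and without control replicate 3 (orange). Of the 10 points, 9 are below 0 with all libraries and 0 are below 0 without control replicate 3, where the intervals are narrower for every gene but Hopx, for which they are about the same.

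The wider epithelial program was read from 5 further lists, of other type 2 genes, other type 1 genes, general epithelial genes, lung epithelial transcription factors and ligands of the alveolar epithelium. Of their 62 tested genes, 55 (88.7%) were highest in control replicate 3, and the median offset of that library was 1.27 on the log2 scale. None of the 62 passed the threshold between genotypes and 3 (*Marveld2*, *Cebpa* and *Vegfa*) had an unadjusted *P* value below 0.05, against 23.9% of all genes tested, with 19 positive and 43 negative log2 fold changes (median -0.10). Without control replicate 3, the highest library for 55 of the 62, 56 were positive (median 0.30). An unadjusted *P* value below 0.05 was then found for 17, where 21.3% of all genes tested had one. At an adjusted *P* value below 0.05, 2 were higher, where 0.436% of all genes tested were. Both are type 2 genes. Control replicate 3 had been singled out with epithelial values known and was the highest control for both. Leaving it out could therefore only raise their fold changes, and these counts are a description. It was the highest library for 19.7% of all genes tested, so the shares over all genes are not a like comparison. *Slc34a2*, for the phosphate transporter of type 2 cells, was at 2006, 1889 and 5710 in control replicates 1 to 3 and at 3411, 2856 and 3041 in Atp6ap2iECKO replicates 1 to 3. Its log2 fold change was 0.15 with all libraries (adjusted *P* = 0.850 from limma) and 0.67 without control replicate 3 (adjusted *P* = 0.0433). Without both libraries low in *Xist* it was 0.73 (adjusted *P* = 0.125 from limma). *Lpcat1*, for an enzyme that makes surfactant phospholipid, named after its values were seen, was at 835.9, 873.8 and 1570 in controls and at 1270, 1688 and 1665 in Atp6ap2iECKO iLECs. Its log2 fold change was 0.55 (adjusted *P* = 0.215) with all libraries and 0.84 (adjusted *P* = 0.0474) without control replicate 3. Leaving out both libraries low in *Xist* gave 0.77 (adjusted *P* = 0.146 from limma). Unlike the surfactant protein genes, *Lpcat1* was as high in Atp6ap2iECKO replicates 2 and 3 as in control replicate 3.

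Within those lists, most genes followed the surfactant genes and a few did not. Of the 15 other type 2 genes, 13 were highest in control replicate 3 (median offset 1.12), among them *Cxcl15*, a chemokine of lung epithelium, at 2.16 times the mean of the other controls. The same held for 12 of 13 tested type 1 genes (median offset 1.23). *Gprc5a*, a receptor gene of type 1 cells, was at 1.90 times, while *Clic5*, a chloride channel gene with normalized counts of 14619 to 19947, was at 0.97 times. *Col4a3* and *Col4a4*, chains of the type IV collagen that type 1 cells add to the shared basement membrane, were at 2.39 and 2.51 times. *Marveld2*, a tight junction gene named after its values were seen, was higher in every Atp6ap2iECKO library, at 318.0 to 384.7, than in the controls, at 190.5 to 288.3 (log2 difference 0.60, adjusted *P* = 0.1002 by limma, and 0.0489 with the replicate number as a block). Of 23 general epithelial genes, 21 were highest in control replicate 3 (median offset 1.41), with *Cdh1*, the gene of E-cadherin, at 2.52 times and the tight junction gene *Cldn18* at 2.65 times. The transcription factor list was mixed, with 5 of 7 tested genes highest in that library (median offset 1.15). *Gata6*, which many lung cell types use, was at 0.98 times and *Cebpa*, used by type 2 and myeloid cells, at 1.53 times, and *Sox2*, a factor of airway epithelium, was listed at 0 in all 6 libraries. All 4 ligand genes were highest in control replicate 3 (median offset 1.36). *Vegfa*, the growth factor through which type 1 cells address capillaries, was at 8510, 9877 and 13016 in controls and at 8374, 7856 and 7886 in Atp6ap2iECKO iLECs. The genotypes did not overlap for *Vegfa*, and the log2 difference was -0.36 (adjusted *P* = 0.184 by limma), or -0.19 (adjusted *P* = 0.311) without control replicate 3. *Pdgfa*, also listed as a ligand of the alveolar epithelium, was at 2.30 times in control replicate 3, and its log2 fold change was -0.18 (adjusted *P* = 0.776 by limma).

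Of the airway secretory markers, 3 of 10 passed the filter on low values, and 1 of these was higher in Atp6ap2iECKO iLECs, where 3.28% of all genes tested were. *Scgb1a1*, the secretoglobin of club cells, rose from 45.9, 73.3 and 125.3 in control replicates 1 to 3 to 263.7, 167.6 and 369.9 in Atp6ap2iECKO replicates 1 to 3. On the log2 scale it was 1.75 higher, with a standard error of 0.41 and an adjusted *P* value of 0.0408 by limma, and the genotypes did not overlap. The ratio of *Sftpc* to *Scgb1a1* was 340.9, 185.6 and 311.9 in controls and 81.8, 104.9 and 44.4 in Atp6ap2iECKO iLECs, a range of 7.67-fold. Among controls, the airway genes shared the offset of replicate 3 (median 1.10 over the 3 genes). *Cyp2f2*, an enzyme of the same cells, was at 13.9, 18.7 and 35.8 in controls and at 46.4, 21.2 and 46.9 in Atp6ap2iECKO iLECs (log2 fold change 0.74, adjusted *P* = 0.404). The call for *Scgb1a1* was lost when any library other than control replicate 3 was left out (adjusted *P* between 0.0596 and 0.145), and without control replicate 3 it was 0.0497. Of the 10 ciliated cell genes, 3 passed the filter on low values, 0 of them past the threshold, and 1 was at 0 in all 6 libraries. *Foxj1*, the regulator of motile cilia, was at 17.9 in control replicate 3, its lowest library, and between 31.2 and 61.2 elsewhere. *Tppp3* was at 1629 in control replicate 3 and between 919.5 and 1056 elsewhere. It made up most of the summed level of the list (1667 in control replicate 3), so it cannot be taken alone as a measure of ciliated cells. The 7 basal and neuroendocrine genes were near or at 0, with none tested.

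Markers of other cell types in control replicate 3 differed in their offset. The median offset was -0.16 over 20 EC markers, of which 0 were highest in that library, 0.04 over 12 tested leukocyte markers, 0.21 over 8 tested fibroblast markers, 0.40 over 8 mural markers and 0.93 over 5 tested red blood cell markers. It was 2.19 over the 2 tested mesothelial markers, *Msln* and *Upk1b*, which is above the 1.43 of the alveolar genes. Control replicate 3 was the highest library for 6 of 8 mural, 4 of 5 tested red blood cell and both tested mesothelial markers. The same held for 2 of 12 tested leukocyte and 2 of 8 tested fibroblast markers, against 19.7% of all genes tested. The part of these cells in the epithelial level of the library was not tested. The summed level of the 20 EC markers was lower in control replicate 3, at 427721, than in replicates 1 and 2, at 565376 and 466478. It was similar in Atp6ap2iECKO replicate 3, at 421710. Between genotypes, 7 of 8 tested fibroblast markers and 6 of 8 mural markers were lower in Atp6ap2iECKO iLECs, with median log2 fold changes of -1.49 for both lists, where 4.97% of all genes tested were lower. Without control replicate 3, 2 fibroblast and 3 mural markers passed as lower, where 1.42% of all genes tested did. The medians were then -1.39 and -1.32, and all 8 tested genes of each list stayed negative. Of the 20 EC markers, *Tek* alone passed and was lower. In the leukocyte, red blood cell and mesothelial lists, 0 of 12, 0 of 5 and 0 of 2 tested markers passed in limma, with 0, 0 and 1 at an unadjusted *P* value below 0.05. The summed fibroblast level ran from 29633 to 49959 among controls and from 12532 to 15839 among Atp6ap2iECKO libraries, whereas that of the 10 alveolar genes ran from 29845 to 75535 and from 36286 to 43881. The marker lists by library are shown in the plots of offsets and of summed levels.

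**Figure D3:**
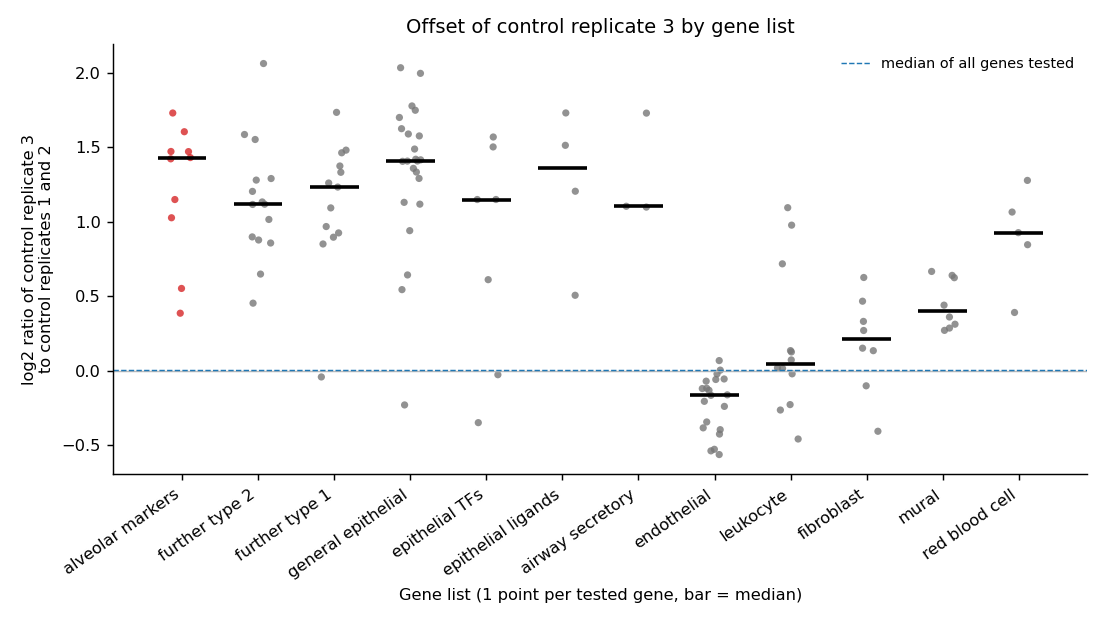
Log2 ratio of control replicate 3 to the mean of control replicates 1 and 2 on the log2 scale, for each tested gene (points) of 12 lists, with the median of each list (bars) and of all genes tested (dashed line, 0.00). The alveolar, type 2, type 1 and general epithelial lists have medians between 1.12 and 1.43, the red blood cell list 0.93 and the endothelial list -0.16. The mesothelial list (median 2.19, 2 tested genes) and the ciliated list (0.53, 3 tested genes) are not drawn.

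**Figure D4:**
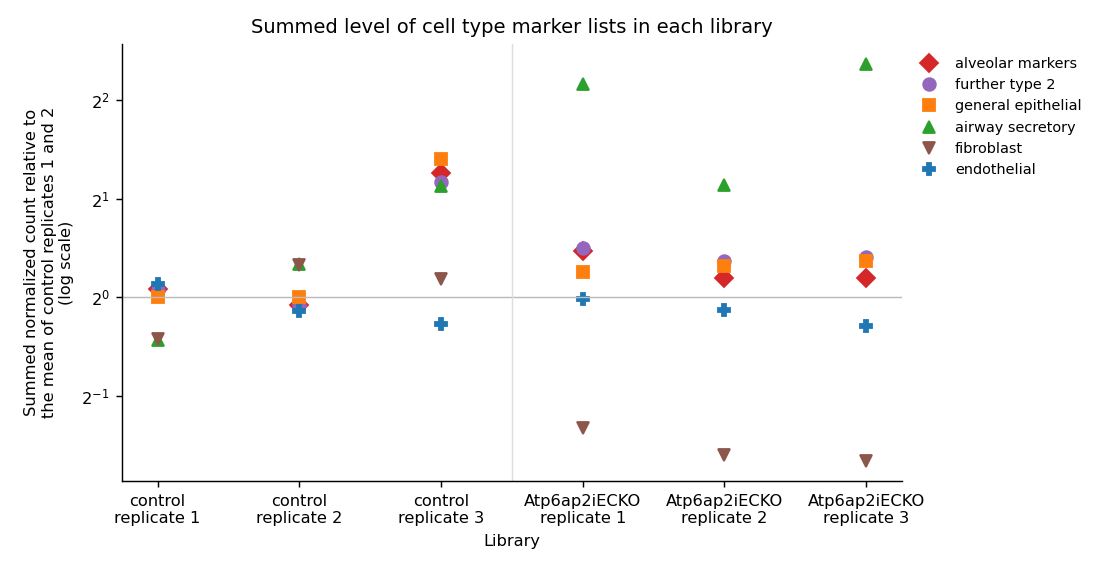
Summed normalized count of 6 marker lists in each library, divided by the mean of control replicates 1 and 2, on a log axis. The alveolar markers reach 2.39 in control replicate 3, fibroblast markers are lower in the 3 Atp6ap2iECKO libraries, and airway secretory markers average 3.95 there. Against the mean of all 3 controls the airway value is 2.83, and Scgb1a1 makes up most of the airway sum in each Atp6ap2iECKO library.

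To find the genes most like the 10 markers, Pearson's r was taken over the 6 libraries between each gene and the mean centred log2 profile of the markers, among 1965 other genes with a mean of at least 100 and a log2 range of at least 1. Among the 10 nearest were *Krt19*, *Sec14l3*, *Cdh1*, *Irx1*, *Akr1c14*, *Cldn7*, *Slc4a5*, *Dsp* and *Myh14*, with r from 0.986 to 0.994. In these genes control replicate 3 was between 2.05 times (*Dsp*) and 3.56 times (*Irx1*) the mean of the other controls. *Krt19*, *Cdh1* and *Cldn7* were on the general epithelial list, and 32 of the 100 nearest genes were on the 5 epithelial lists above. The share of these lists among all 1965 genes is not given, so the count is a description. Among the 10 markers themselves, r with the mean of the other 9 was highest for *Ager* (0.987) and *Sftpc* (0.982) and lowest for *Hopx* (0.641). These values rest on 6 libraries, 1 of which lies far from the rest.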

How the data were processed

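The authors aligned the reads to mm10 and quantified genes with the BaseSpace RNA-Seq alignment (version 2.0.1) and Differential Expression (version 1.0.1) tools. Their deposited values, 1 column per library, are a normalized signal per gene symbol (called normalized counts here). They are not whole numbers, although the labels call them raw. Annotation is not given in the sources used here. Read numbers could not be recovered, so no counting intervals are given and precision rests on 3 libraries per genotype. As nothing ties libraries to separate litters, *P* values measure the spread between these samples.

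Values were analysed as log2 of the normalized count plus 1. A gene entered the test if 3 or more libraries held 10 or more, which left 14456 genes for limma (version 3.58.1, R 4.3.3, mean-variance trend, no covariate), with Benjamini-Hochberg adjustment over all of them and a threshold of 0.05. The test was checked on simulated data. Exonic length was the union of protein-coding exons in the basic GENCODE M21 annotation (GRCm38). Genes were named from the 10 members, the 2 with the highest mean in each other list, epithelial list genes past the threshold, and the 10 nearest by correlation, 1 of which is not reported here. *Lpcat1*, *Col4a3*, *Col4a4*, *Sox2*, *Marveld2* and *Tek* were added after their values were seen. Members, lists and the attention to control replicate 3 were chosen with earlier results of these data known. Alternatives were other scalings, filters, pseudocounts and variance models, a replicate block, an *Xist* covariate and each library left out, and, added after seeing the data, both libraries low in *Xist* left out. Figures were drawn with matplotlib 3.10.9.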

Additional observations from a re-analysis of the deposited data

How the results depend on the processing

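Of the 10 alveolar markers, 0 passed the threshold under any of 18 alternatives. Their median log2 fold change, -0.15, was between -0.41 and 0.30 with a library left out, and that of their summed level, -0.13, between -0.38 and 0.29, with the positive ends without control replicate 3. The offset of control replicate 3, 1.43, was between 1.41 and 1.65 under 5 alternatives. With a library left out, log2 fold changes ran from -0.42 to 0.34 for *Sftpc*, -0.25 to 0.33 for *Sftpb*, -0.44 to 0.27 for *Sftpa1*, -0.56 to 0.32 for *Sftpd*, -0.46 to 0.33 for *Ager*, -0.11 to 0.10 for *Abca3*, -0.23 to 0.19 for *Hopx*, -0.31 to 0.57 for *Nkx2-1*, -0.49 to 0.26 for *Epcam* and -0.45 to 0.12 for *Lamp3*. For *Slc34a2* they ran from -0.13 to 0.67, for *Col4a3* from -0.15 to 0.52 and for *Col4a4* from -0.20 to 0.54. Without both libraries low in *Xist*, they were 0.37 for *Sftpc*, 0.46 for *Sftpb*, 0.21 for *Sftpa1*, 0.23 for *Sftpd*, 0.42 for *Ager*, 0.11 for *Abca3*, 0.60 for *Nkx2-1*, 0.19 for *Epcam* and 0.19 for *Lamp3*. Both genes nearest 0 among the negative ones also changed sign with the scaling. *Abca3* was at 0.014 with library size and 0.021 with EC marker scaling, and *Nkx2-1* at 0.035 and 0.041, and at 0.047 with library weights. The adjusted *P* value of *Scgb1a1* was above 0.05 in 9 of 18 alternatives, among them EC marker scaling (0.0553), no trend (0.0952) and the *Xist* covariate (0.0625).

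No source used here says that libraries with the same replicate number are paired. Deviations of same-numbered libraries correlated at 0.25, 0.11 and 0.08 across genes (other pairs, -0.21 to 0.10). Not every pair exceeded 0.1, and these values do not settle whether the libraries are paired. With the replicate block, 0 of the 10 markers passed, their median log2 fold change was -0.15, and *Scgb1a1* had an adjusted *P* value of 0.016. *Marveld2* passed with the block alone (0.0489, other alternatives 0.0640 to 0.306).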

Other observations

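Some non-epithelial markers were also uneven among controls. *Hba-a1*, a globin gene of red blood cells, was at 8757, 30333 and 39505 in control replicates 1 to 3 and at 8541, 15321 and 17629 in Atp6ap2iECKO replicates 1 to 3. *Msln*, a gene of the mesothelium that covers the lung, was at 67.8, 165.3 and 479.4 in controls and between 163.6 and 224.3 in Atp6ap2iECKO libraries. *Ptprc*, the pan-leukocyte gene of CD45, was at 1930, 995.9 and 1457 in controls and at 2000, 955.7 and 3106 in Atp6ap2iECKO libraries, so its highest library was not control replicate 3.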
